A study of Sus scrofa with 3 samples.

Results

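The miR-199 family and its genomic neighbour miR-214 were examined in porcine psoas major, a loin muscle. The members were all rows of the 3 deposited small RNA files listed under a mature porcine name of miR-199 or miR-214. Of 5 such names, 4 were present in every file (ssc-miR-199a-3p, ssc-miR-199a-5p, ssc-miR-199b-5p and ssc-miR-214), out of 255, 260 and 257 porcine mature names at 63, 98 and 161 d. The remaining name, ssc-miR-199b-3p, had no row of its own, since the 3p arm of the ssc-mir-199b hairpin is listed as ssc-miR-199a-3p. The 4 names filled 7 rows in each file, of 1302, 1648 and 1511.

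The animals were castrated male pigs of a Landrace × Large White × Duroc cross, all fattening pigs, and they were killed for sampling at an age of 63 d, 98 d or 161 d. The feed was changed with body weight as the pigs grew, so that age and diet cannot be told apart. Equal amounts of total RNA of 6 pigs were pooled at each age (18 pigs in all) and made into 1 small RNA library. There were thus no replicates, the variation between pigs was not measured, and no difference between ages could be tested. The files summed to 1464699, 2418187 and 2242716 reads at 63, 98 and 161 d, so a count of 3 reads, the lowest taken as detected, corresponded to 2.05, 1.24 and 1.34 RPM (reads per 1000000 reads of the file). All intervals given below are 95% intervals of counting error alone, for reads without molecular identifiers.

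A miRNA hairpin is cut into a duplex of a 5p and a 3p strand, and one strand is usually kept in the silencing complex while its partner is lost. Bases 2 to 8 of the kept strand, the seed, pair with target mRNAs. miR-214 and the miR-199a hairpin next to it are transcribed together from the strand opposite to a dynamin gene, under the transcription factor Twist1. miR-199a and miR-214 are known from mesenchymal cells, fibroblasts, smooth muscle and developing bone. In muscle, miR-214 is known to act on Ezh2, a Polycomb methyltransferase, during myoblast differentiation.

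The mature sequences of the members are shown because the 5p strands carry one seed, and the 3p strand and miR-214 have seeds of their own. They are the known sequences given in the files (5′ to 3′, DNA letters), and the capitals mark the seed.
ssc-miR-199a-5p: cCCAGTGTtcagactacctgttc
ssc-miR-199b-5p: cCCAGTGTttagactatctgtt
ssc-miR-199a-3p: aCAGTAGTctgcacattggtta
ssc-miR-214: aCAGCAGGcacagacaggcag

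Over the 22 bases that both 5p sequences cover, ssc-miR-199a-5p and ssc-miR-199b-5p differed at 2 positions, C10T and C17T, counted from 1 at the 5′ end with the ssc-miR-199a-5p base first. Both positions lie outside the seed. Most reads of the 5p arms can therefore be told apart between miR-199a and miR-199b. Reads of the mature 3p arm cannot, as the 4 hairpins printed next show. These are the genome sequences in the files, with capitals for the representative read of each arm at 98 d.
ssc-mir-199a-1: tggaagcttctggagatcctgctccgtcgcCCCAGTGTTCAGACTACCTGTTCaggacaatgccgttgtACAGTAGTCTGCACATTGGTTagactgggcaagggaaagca
ssc-mir-199a-2: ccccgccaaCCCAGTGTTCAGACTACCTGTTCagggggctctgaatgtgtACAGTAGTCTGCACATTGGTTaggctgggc
ssc-mir-199b: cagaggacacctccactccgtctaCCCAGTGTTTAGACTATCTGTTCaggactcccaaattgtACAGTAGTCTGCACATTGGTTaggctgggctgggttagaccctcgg
ssc-mir-214: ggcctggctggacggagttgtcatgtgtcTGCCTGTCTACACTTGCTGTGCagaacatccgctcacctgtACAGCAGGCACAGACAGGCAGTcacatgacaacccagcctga

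All 4 hairpins lay on the minus strand. The ssc-mir-214 hairpin (bases 126099459 to 126099570) and ssc-mir-199a-1 (126105239 to 126105348) were on the same genome sequence, with 5668 bases between them. The files list ssc-mir-199a-1 together with the human hairpin hsa-mir-199a-2, so the numbering of the 2 species is crossed. The hairpin ssc-mir-199a-2 (69991779 to 69991858) and the hairpin ssc-mir-199b (302681808 to 302681916) were on separate genome sequences. The files name neither the chromosomes nor the genome build of these positions. In the RefSeq annotation of the assembly Sscrofa11.1, MIR199A-1 and MIR214 lie within the bounds of DNM3, MIR199A-2 within DNM2 and MIR199B within DNM1, which encode dynamins, GTPases that pinch off membrane vesicles. The stretch between the read arms was 16 bases in ssc-mir-199a-1 and ssc-mir-199b, 18 in ssc-mir-199a-2 and 19 in ssc-mir-214. The representative 3p read was the same in the 3 miR-199 hairpins, and the representative 5p read was the same in the 2 miR-199a hairpins only.

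A read that fits more than 1 hairpin was shared out evenly among these hairpins in the files. ssc-miR-199a-3p was listed at the 3 miR-199 hairpins, with 3145.33 to 3152.33 reads per hairpin at 63 d, 5556.17 to 5562.67 at 98 d and 4581.33 to 4591.33 at 161 d. These near-equal values come from the division and do not show how much 3p strand each hairpin made. ssc-miR-199a-5p was listed at ssc-mir-199a-1 and ssc-mir-199a-2, with 225 reads at each at 63 d, 539.5 at each at 98 d, and 333.5 and 334 at 161 d. ssc-miR-199b-5p and ssc-miR-214 each had a single hairpin. The rows of a name were summed for all further values, which counts every read once.

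In each library the order of the members was the same, with ssc-miR-199a-3p far above ssc-miR-199b-5p, then ssc-miR-199a-5p and last ssc-miR-214. The levels are RPM after TMM scaling, which sets the libraries to a common level by a trimmed mean of the ratios between them.

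ssc-miR-199a-3p, the strand of the family with most reads, had 9443, 16676 and 13756 reads at 63, 98 and 161 d. Its level was 6341 (6214 to 6469), 6412 (6316 to 6510) and 6707 (6596 to 6820) normalised RPM. The 3 libraries were close to each other, and the intervals of 63 and 98 d overlapped.

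ssc-miR-199b-5p, listed only at the ssc-mir-199b hairpin, had 1064, 3709 and 2202.5 reads. The fraction at 161 d shows that not every read was assigned to this hairpin alone. Its level was 714 (673 to 759) at 63 d, 1426 (1381 to 1473) at 98 d and 1074 (1029.8 to 1119) at 161 d. The 98 d library was the highest and the 63 d library the lowest, without overlap of the intervals.

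ssc-miR-199a-5p, which shares its seed with ssc-miR-199b-5p, had 450, 1079 and 667.5 reads. Its level was 302 (276 to 331), 415 (391 to 440.4) and 325 (302 to 351) at 63, 98 and 161 d. The 98 d library was again the highest, and the intervals of 63 and 161 d overlapped.

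ssc-miR-214, the 3p strand of its hairpin, had 325, 692 and 402 reads. Its level was 218 (196 to 243), 266 (247 to 287) and 196 (178 to 216) at 63, 98 and 161 d. Its highest library was also that of 98 d, and the intervals of 63 and 161 d overlapped.

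**Figure D1:**
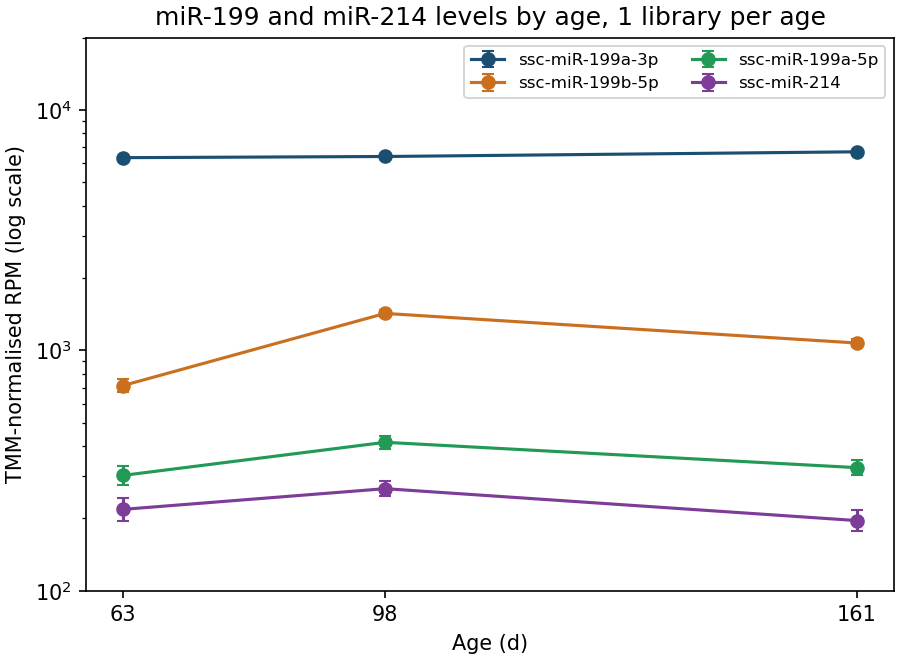
Level of each member (TMM-normalised RPM, log axis) against age in days, with 1 library of 6 pooled pigs per age and bars for the 95% Wilson interval of the read count. ssc-miR-199a-3p stays between 6341 and 6707, while ssc-miR-199b-5p goes from 714 to 1426 and back to 1074, and the order of the 4 members is the same at each age.

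Among the porcine mature names, ssc-miR-199a-3p ranked 17, 19 and 17 by reads at 63, 98 and 161 d. ssc-miR-199b-5p ranked 50, 39 and 46, ssc-miR-199a-5p 83, 75 and 83, and ssc-miR-214 92, 96 and 101. Together the 4 names held 0.770% (0.756 to 0.785), 0.916% (0.904 to 0.928) and 0.759% (0.748 to 0.771) of all reads listed. In bulk muscle, fewer cells of a type and less of a miRNA per cell cannot be told apart, and the cells that made these reads were not identified.

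With TMM scaling, no member passed the fold limit used for the whole table (above 2 or below 0.5) in any pair of ages. Of 604 names with at least 10 reads in 98 d or 63 d, 27.2% passed it, against 0 of the 4 members. Between 161 and 98 d 25.4% of 607 names passed, and between 161 and 63 d 32.7% of 572, again with 0 members. Among the porcine mature names alone the shares were 16.2%, 12.7% and 20.0% in the same order. Every member had over 100 reads in every library, and among the 247, 254 and 231 names with at least 100 reads in both libraries of a pair only 8.5%, 4.33% and 11.7% passed.

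The member nearest to the limit was ssc-miR-199b-5p, whose level at 98 d was 1.996 times that at 63 d (1.86 to 2.14), so that its interval covered the limit. Scaled to the plain file totals its fold was 2.11 and past the limit. It was the highest fold of the members in this pair. Of the 247 names with at least 100 reads in both libraries 4.05% had a higher one, and of all names tested 15.7%. From 98 to 161 d ssc-miR-199b-5p changed to 0.753 (0.714 to 0.794) times its level, and at 161 d it stood at 1.50 (1.40 to 1.62) times the 63 d level.

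ssc-miR-199a-5p moved in the same directions with smaller steps, at 1.37 (1.23 to 1.54) from 63 to 98 d and 0.784 (0.712 to 0.865) from 98 to 161 d. Its level at 161 d was 1.08 (0.955 to 1.22) times that at 63 d, an interval that holds 1. Both 5p strands together gave 1.81 (1.71 to 1.92), 0.760 (0.725 to 0.796) and 1.38 (1.29 to 1.47) for 98 against 63 d, 161 against 98 d and 161 against 63 d.

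ssc-miR-214 had folds of 1.22 (1.07 to 1.40) from 63 to 98 d and 0.737 (0.650 to 0.834) from 98 to 161 d. At 161 d it stood at 0.898 (0.774 to 1.04) times its 63 d level, and the interval again held 1. The folds of ssc-miR-199a-3p were the closest to 1, at 1.01 (0.986 to 1.04), 1.05 (1.02 to 1.07) and 1.06 (1.03 to 1.09) for the same 3 pairs. Their direction depended on the scaling, since each of them fell below 1 under at least 1 other choice.

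Scaling to the file totals in place of TMM moves every log2 fold by 0.08, -0.23 and -0.15 for 98 against 63 d, 161 against 98 d and 161 against 63 d. The median log2 fold of all names tested with reads in both libraries was 0.11, -0.07 and -0.01 in these pairs. Beside them, the log2 folds of ssc-miR-199b-5p were 1.00, -0.41 and 0.59.

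**Figure D2:**
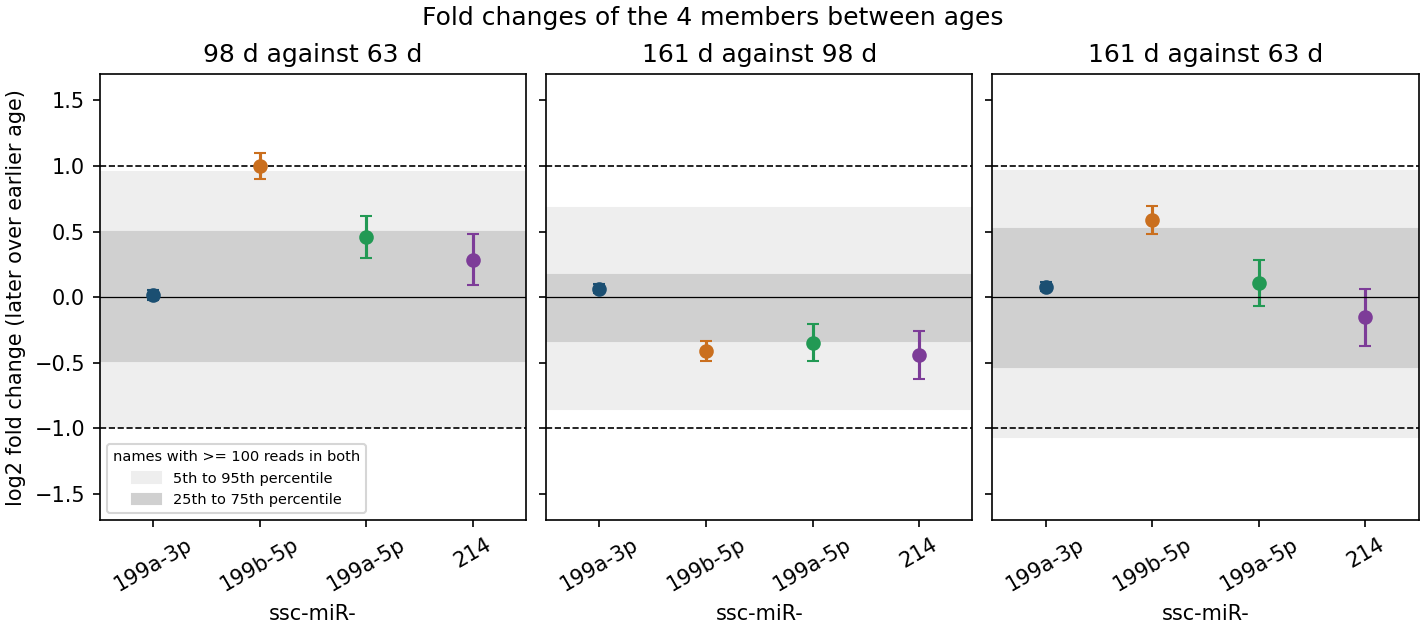
Log2 fold change of the TMM-normalised level of each member (later over earlier age) in the 3 pairs of ages, with 95% Clopper-Pearson bars, dashed lines at the fold limits of 2 and 0.5, and grey bands for the 25th to 75th and the 5th to 95th percentile of all names with at least 100 reads in both libraries. No point lies past a dashed line, and the bar of ssc-miR-199b-5p in 98 against 63 d crosses it.

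The 98 d library, in which 3 of the 4 members were highest, also differed in other ways. Of the 137 porcine names with at least 100 reads in every library, 52 (38.0%) had their highest level there, 39 (28.5%) at 63 d and 46 (33.6%) at 161 d. ssc-miR-133a-3p, a muscle miRNA, took 36.2% of its reads, against 43.3% at 63 d and 44.0% at 161 d. ssc-miR-122, the marker of hepatocytes, had 297 reads at 98 d, against 11 and 12 at 63 and 161 d. The endothelial miR-126 names summed to 5737, 9083 and 7391 normalised RPM at 63, 98 and 161 d. The red blood cell names (miR-144 and miR-451) summed to 794, 1387 and 1169, and the white blood cell names (miR-142 and miR-150, with miR-223 not listed) to 1078, 1383 and 1078. Only 1 of 5 epithelial miRNAs, ssc-miR-429, was listed, with 14, 56 and 24 reads. The part of these differences in the members' levels was not tested.

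The labelled tissue was clear in every library. The 8 porcine names of skeletal muscle miRNAs (miR-1, miR-133a, miR-133b, miR-206, miR-208b and miR-499) held 45.1%, 40.1% and 46.6% of the reads at 63, 98 and 161 d. Most of this was the single name ssc-miR-133a-3p, with 43.3%, 36.2% and 44.0%.

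Ratios between strands of one library need no scaling and were therefore examined next. The 3p strand of miR-199 outnumbered both 5p strands together 6.24 times (5.91 to 6.59) at 63 d, 3.48 times (3.37 to 3.60) at 98 d and 4.79 times (4.60 to 4.99) at 161 d. The 3 intervals did not overlap, with the lowest ratio at 98 d. Restricted to reads without mapping errors, the ratios were 6.48, 3.54 and 4.90. Counting each name at 1 hairpin in place of all of them lowers them to 2.45, 1.31 and 1.81, since the 3p reads are divided among 3 hairpins.

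This pattern was shared with other miRNAs. In 10 other porcine miRNAs with at least 100 reads on each arm in every library, a set picked after the miR-199 values were seen, the 3p over 5p ratio was lower at 98 d than at 63 d in 9. Their log2 changes ran from -0.78 to 0.20 with a median of -0.43, and that of miR-199 was -0.84. From 98 to 161 d miR-199 changed by 0.46, within the range of the others (-0.47 to 0.59), and from 63 to 161 d by -0.38, where 5 of the 10 were lower and 5 higher.

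**Figure D3:**
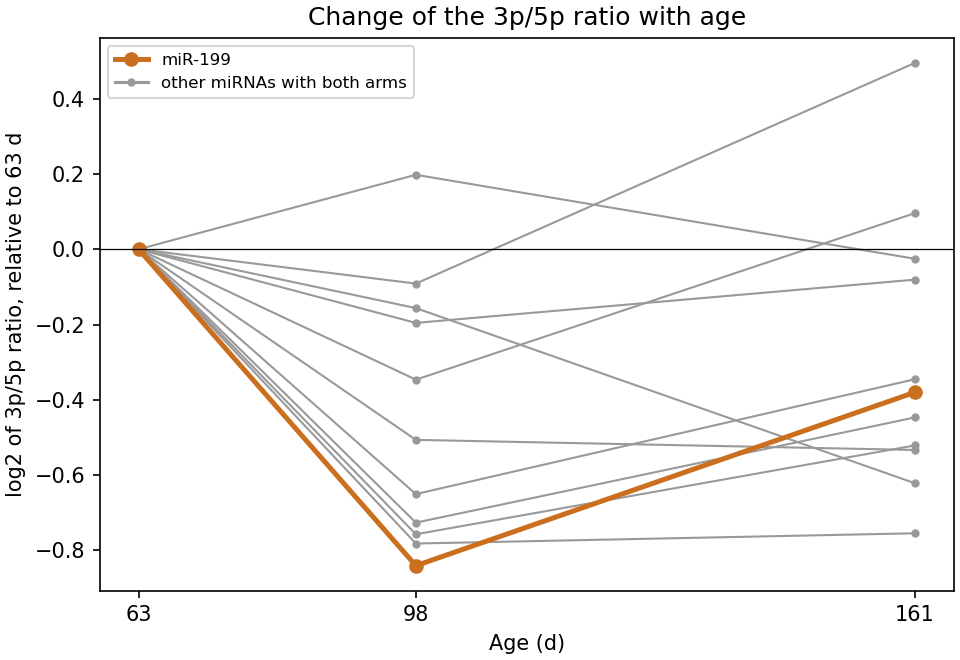
Log2 of the 3p over 5p read ratio relative to 63 d, against age in days, for miR-199 (orange) and for 10 other porcine miRNAs with at least 100 reads on each arm in every library (grey). At 98 d miR-199 is at -0.84 and 9 of the 10 others are also below 0.

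Within the 5p reads, the share of miR-199b was 70.3% (67.9 to 72.5) at 63 d, 77.5% (76.3 to 78.6) at 98 d and 76.7% (75.1 to 78.2) at 161 d. The share at 63 d was the lowest, and the intervals of 98 and 161 d overlapped. The odds of miR-199b among 5p reads were 1.45 (1.28 to 1.65) times higher at 98 d and 1.39 (1.21 to 1.60) times higher at 161 d than at 63 d. The ssc-mir-199b hairpin alone thus held more 5p reads than both miR-199a hairpins together in every library.

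The level of ssc-miR-214 relative to ssc-miR-199a-5p was examined because their hairpins ssc-mir-214 and ssc-mir-199a-1 are neighbours. The ratio of reads was 0.722 (0.624 to 0.835), 0.641 (0.582 to 0.706) and 0.602 (0.530 to 0.682) at 63, 98 and 161 d. All 3 intervals overlapped, and the interval of the odds ratio between 161 and 63 d (0.690 to 1.01) held 1. Restricted to reads without mapping errors, the ratios were 0.805, 0.760 and 0.598, with a larger step from 98 to 161 d. No interval is given for these, so the overlap is stated for all reads only. The ssc-miR-199a-5p reads were assigned in equal or nearly equal parts to ssc-mir-199a-1 and ssc-mir-199a-2. With ssc-miR-199a-5p counted at 1 hairpin, ssc-miR-214 had more reads than ssc-miR-199a-5p, at ratios of 1.44, 1.28 and 1.21.

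**Figure D4:**
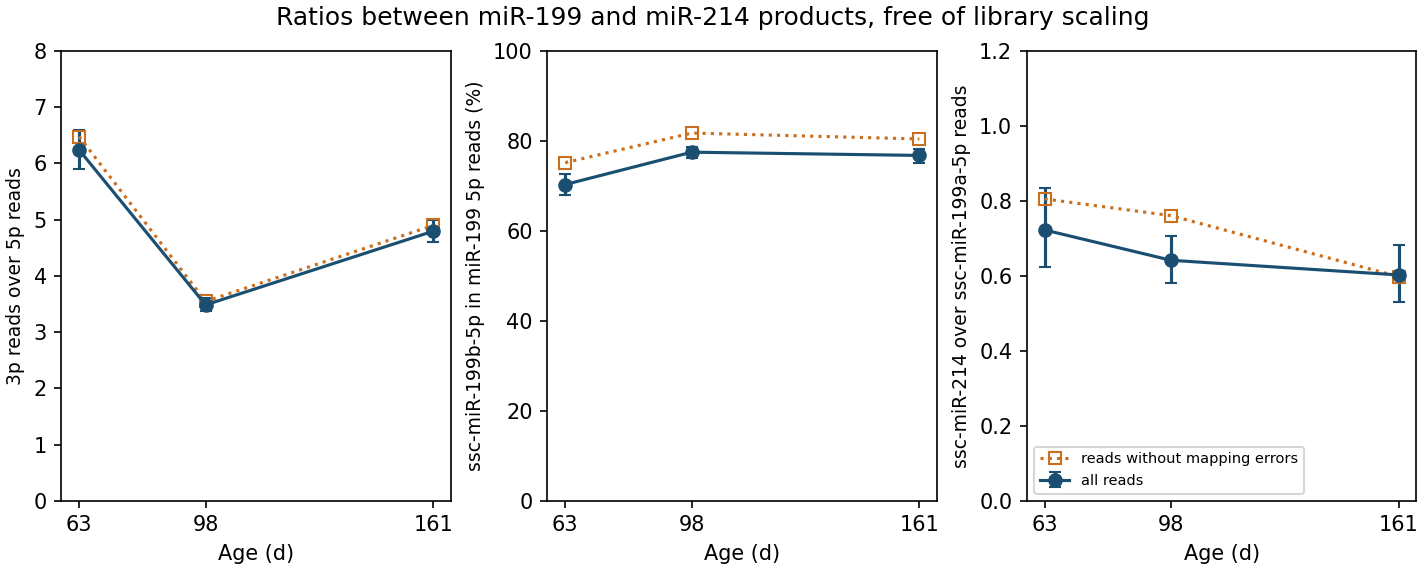
The 3 ratios within each library against age in days, namely 3p over 5p reads of miR-199, the share of ssc-miR-199b-5p in the miR-199 5p reads (percent) and ssc-miR-214 over ssc-miR-199a-5p reads. Filled circles with 95% intervals are all reads and open squares are reads without mapping errors, and the 3p over 5p ratio is lowest at 98 d (3.48).

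The other strand of the ssc-mir-214 hairpin was listed under the human name hsa-miR-214-5p. Its known sequence is shown with the seed in capitals, as it has a seed of its own.
hsa-miR-214-5p: tGCCTGTCtacacttgctgtgc

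It had 41, 58 and 40 reads, or 27.5, 22.3 and 19.5 normalised RPM, at 63, 98 and 161 d. The 3p strand, ssc-miR-214, outnumbered it 7.93 (5.72 to 11.3), 11.9 (9.12 to 15.9) and 10.1 (7.25 to 14.3) times, with overlapping intervals. Names of miR-199 from other species added only 17, 33 and 22 reads, of which 0, 0 and 1 were free of mapping errors, and were left out of the sums.

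The reads of each member were a mixture of end variants. For every member the files give the representative read of the arm, shown here for the forms that differ from the known sequence.
ssc-miR-199a-3p in all 3 libraries: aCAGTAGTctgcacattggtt
ssc-miR-199b-5p in all 3 libraries: cCCAGTGTttagactatctgttc
ssc-miR-214 in all 3 libraries: aCAGCAGGcacagacaggcagt
ssc-miR-199a-5p at 161 d: cCCAGTGTtcagactacctgt

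All of these differed from the known sequence at the 3′ end only, and the seeds were intact. ssc-miR-199a-3p was read 1 base shorter, at 21 bases, and ssc-miR-199b-5p and ssc-miR-214 were read 1 base longer, at 23 and 22 bases. ssc-miR-199a-5p had its known form of 23 bases as representative at 63 and 98 d and a form of 21 bases at 161 d.

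The representative read made up 55.5% (54.5 to 56.5), 54.0% (53.3 to 54.8) and 58.4% (57.6 to 59.2) of the ssc-miR-199a-3p reads at 63, 98 and 161 d. For ssc-miR-199b-5p its share was 57.9% (54.9 to 60.8), 53.9% (52.3 to 55.5) and 51.5% (49.5 to 53.6). For ssc-miR-214 it was 37.5% (32.4 to 42.9), 42.2% (38.6 to 45.9) and 30.3% (26.1 to 35.0). For ssc-miR-199a-5p it was the lowest of the members, at 27.6% (23.6 to 31.9), 23.0% (20.6 to 25.6) and 24.3% (21.2 to 27.6), of which the last refers to the shorter form.

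The members also differed in the share of reads that mapped without error. It was 91.7%, 90.5% and 90.7% for ssc-miR-199b-5p and 89.1%, 87.3% and 88.4% for ssc-miR-199a-3p at 63, 98 and 161 d. For ssc-miR-214 it was 80.0%, 82.5% and 72.4%, and for ssc-miR-199a-5p 71.8%, 69.6% and 73.0%. Among 5p reads without mapping errors the share of miR-199b was 75.1%, 81.7% and 80.4%, again lowest at 63 d.

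Each member was then set beside the names with the most similar course over the 3 libraries, by the root mean square difference of centred log2 levels among the other porcine names with at least 100 reads in every library. These are descriptions over 3 points that share the libraries and their scaling. For ssc-miR-199b-5p the nearest were ssc-miR-374a-5p (0.06), ssc-miR-126-5p (0.07) and ssc-miR-30b-5p (0.08). ssc-miR-126-5p, from a hairpin of endothelial cells, had levels of 3590.3, 6393 and 5230.3 normalised RPM at 63, 98 and 161 d. For ssc-miR-199a-5p they were ssc-miR-98 (0.01), ssc-miR-21 (0.04) and ssc-miR-126-3p (0.06), and for ssc-miR-214 they were ssc-miR-190a (0.02), ssc-miR-30c-5p (0.02) and ssc-miR-182 (0.04). The nearest to ssc-miR-199a-3p were ssc-miR-221-3p (0.04), ssc-miR-125a (0.04) and ssc-miR-30d (0.05).

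The members differed more from each other than from these names. The names were picked as the nearest, so this follows largely from the choice. It does not show whether the members share a course. Between ssc-miR-199a-3p and ssc-miR-199b-5p, which come in part from 1 hairpin, the difference was 0.40. Of all the other porcine names compared, 103 were closer to ssc-miR-199a-3p and 72 were closer to ssc-miR-199b-5p. ssc-miR-199a-5p and ssc-miR-214 were the most similar pair of members, at 0.11. Only 12 names were closer to ssc-miR-199a-5p and 9 were closer to ssc-miR-214.

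The members were last compared with a list of miRNAs known from connective tissue and smooth muscle (miR-143, miR-145, miR-21, miR-22, miR-24, miR-27b, miR-29a, miR-29b, miR-29c, miR-99a, miR-100, miR-125b, miR-140, miR-152, miR-221 and miR-222), of which 24 porcine names were present. The list contained 0 names past the fold limit in 98 against 63 d, 5 of 24 higher in 161 against 98 d and 8 of 24 higher in 161 against 63 d, and 0 lower. In 98 against 63 d, 16.2% of the porcine mature names and 27.2% of all names passed. The 5 and 8 names were 20.8% and 33.3% of the list in 161 against 98 d and 161 against 63 d. These shares count linked names separately. Among the 5 were both arms of miR-143 and 1 arm of miR-145, which share a transcript. Among the 8 were both arms of miR-143 and of miR-140, and 1 arm of miR-145. Beside them stood 12.7% and 20.0% of the porcine mature names and 25.4% and 32.7% of all names. The list had median log2 folds of 0.35, 0.15 and 0.73 in the 3 pairs. They were 0.25, -0.07 and 0.20 for the porcine mature names and 0.11, -0.07 and -0.01 for all names. The list names past the limit with at least 100 reads in both libraries were ssc-miR-143-3p, ssc-miR-140-3p and ssc-miR-145-5p from 98 to 161 d. From 63 to 161 d they were ssc-miR-143-3p, ssc-miR-140-3p and ssc-miR-29c. The other list names past the limit had fewer than 100 reads in at least 1 library of the pair. Of all names with at least 100 reads in both libraries, 4.33% and 11.7% passed in these pairs. The share of the list itself at this minimum was not computed.

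ssc-miR-143-3p, a miRNA of smooth muscle and fibroblasts, had levels of 8769, 10648 and 28985 normalised RPM at 63, 98 and 161 d, and a fold of 2.72 (2.68 to 2.76) from 98 to 161 d. ssc-miR-140-3p, known from cartilage, had 1002, 817 and 2938, with a fold of 3.59 (3.42 to 3.78) in the same step. ssc-miR-145-5p, which shares a primary transcript with miR-143, had 457, 346 and 752, and a fold of 2.17 (2.00 to 2.36). In that step the 3 members ssc-miR-199b-5p, ssc-miR-199a-5p and ssc-miR-214 had folds of 0.753, 0.784 and 0.737, and ssc-miR-199a-3p had 1.05. ssc-miR-29c, known to act on collagen mRNAs, had 131, 215 and 265, with a fold of 2.02 (1.71 to 2.38) from 63 to 161 d. ssc-miR-21, a miRNA of activated fibroblasts, had 4559, 6050.3 and 5080.2, and was highest at 98 d like the 5p strands of miR-199. ssc-miR-143-3p and ssc-miR-145-5p were thus highest at 161 d. So was ssc-miR-199a-3p, the member with most reads, at 6341, 6412 and 6707, though its direction depended on the scaling. ssc-miR-199b-5p, ssc-miR-199a-5p and ssc-miR-214 were highest at 98 d, as were other names of the list, ssc-miR-21 among them. ssc-miR-21 had already been picked as near to ssc-miR-199a-5p in course. Further list names, such as ssc-miR-140-3p and ssc-miR-29c, were highest at 161 d. Whether these courses differ beyond the variation between pigs could not be tested.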

How the data were processed

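Small RNA of psoas major was read in 3 libraries (63, 98 and 161 d), grouped by the labelled age. The authors processed the reads with ACGT101-miR v4.2. The genome build is not given in the sources used here. The deposited files give counts (how often the representative read was seen) and expected counts (reads of all isoforms at an arm, with reads of several hairpins divided between them), neither normalised. Expected counts of all rows of a name were summed and rounded for scaling. In the 63 d file 139 rows with a blank name took the name above them.

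Levels were scaled with edgeR 4.0.16 (TMM) in R 4.3.3, and DESeq2 1.42.0 gave alternative size factors. Folds are ratios without a pseudocount, with Clopper-Pearson intervals of the conditional binomial, and shares have Wilson intervals (scipy 1.17.1, Python 3.11.15). No test of age was made. The fold count was run on simulated data with counting error only and changes larger than the fold limit. Such data hold no variation between pigs and do not test the limit for single pooled libraries. Named miRNAs are the members, other names at their hairpins, the 3 names nearest in course to each member, and names of a fixed connective tissue list past the fold limit with at least 100 reads in both libraries. Markers of muscle, endothelium, blood, epithelium and liver were named from fixed lists. Members and lists were chosen with earlier results of these data known. Alternatives were other scalings, hairpin rules, representative or error-free reads, minimums, limits and a pseudocount.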

Additional observations from a re-analysis of the deposited data

How the results depend on the processing

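No paired analysis was possible because each age had 1 library. Of 96 alternative folds of the members, 85 kept their direction and their side of the limit. With the file totals, ssc-miR-199b-5p in 98 against 63 d passed the limit at 2.11. The fold of ssc-miR-199a-3p turned below 1 in 98 against 63 d with DESeq2's median of ratios (0.957), without ssc-miR-133a-3p in the total (0.951), with representative reads (0.985) and with error-free reads (0.991). With the file totals it was 0.889 in 161 against 98 d and 0.951 in 161 against 63 d, and without ssc-miR-133a-3p it was 0.963 in the latter. ssc-miR-199a-5p in 161 against 63 d was 0.969, 0.981 and 0.949 with the file totals, without ssc-miR-133a-3p and with representative reads. The last compares the form of 21 bases at 161 d with that of 23 bases at 63 d.

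At 63, 98 and 161 d, counting 1 hairpin per name gave 3p over 5p ratios of 2.45, 1.31 and 1.81, miR-199b shares of 82.5%, 87.3% and 86.8%, and ssc-miR-214 over ssc-miR-199a-5p of 1.44, 1.28 and 1.21. These follow from the division of reads between hairpins. Representative reads gave 7.08, 4.01 and 6.19, then 83.2%, 89.0% and 87.5%, then 0.984, 1.18 and 0.753. At 161 d these rest on the shorter form of ssc-miR-199a-5p. Error-free reads gave miR-199b shares of 75.1%, 81.7% and 80.4%, and 0.805, 0.760 and 0.598 for ssc-miR-214 over ssc-miR-199a-5p. The cause was not tested. Names past the fold limit numbered 21, 11 and 27 with at least 100 reads in both libraries and 38, 30 and 46 for porcine names alone (98 against 63 d, 161 against 98 d, 161 against 63 d), and the shares of names past it were also lower, at 8.5%, 4.33% and 11.7% and at 16.2%, 12.7% and 20.0%. The other alternatives stayed within 1.5 times of 164, 154 and 187. With 1 library per age, only counting error is covered.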
